A study of Mus musculus with 12 samples.

Results

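Spdef and 9 other ETS-family transcription factor genes that epithelia express were followed in organoids of mouse pancreatic ductal adenocarcinoma. The 10 genes were chosen by name (Spdef, Elf3, Ehf, Elf1, Elf2, Elf4, Ets1, Ets2, Etv6 and Gabpa), out of 53715 genes in the deposited tables and 27 ETS genes found there. Organoids are epithelial cultures grown in a gel of basement membrane matrix (Matrigel), here from C57/Bl6 mice with the labelled genotype KrasLSLG12D/+; Trp53LSLR172H/LOH; Pdx1-Cre, in which the Pdx1 promoter drives Cre in the pancreas. All 12 libraries share that genotype. They come from 2 organoid lines, mT6 and mT69a, each in 3 conditions with 2 libraries: a Rosa26-knockout clone with an empty over-expression vector (the control), an Spdef-knockout clone with the empty vector (the knockout), and the Spdef-knockout clone with an SPDEF over-expression vector (the SPDEF vector group). Rosa26 is a locus used as a neutral editing target. With 1 knockout clone per line in the labels, losing Spdef and being that clone cannot be told apart. Whether the 2 libraries of a group were separate cultures is not stated.

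ETS factors share a winged-helix DNA-binding domain that reads a GGAA core, and SPDEF is the member that also reads GGAT well. SPDEF drives the maturation of goblet and other mucus-secreting cells, while Elf3 and Ehf, with their relative Elf5, form the epithelium-specific ESE branch of the family. Elf1, Elf2 and Elf4 are broadly expressed relatives of one another, Ets1 and Ets2 are phosphorylated by ERK downstream of Ras, Etv6 is a repressor that polymerises through its Pointed domain, and Gabpa is the DNA-binding subunit of GA-binding protein, a regulator of housekeeping and mitochondrial promoters.

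The stretch around the start of 3 of these genes is shown because it carries the letters the family itself reads, in the gene of lowest level (Spdef), the gene of highest level (Elf3) and the gene of narrowest range (Gabpa). Each is the RefSeq promoter on GRCm38.p6, 250 bases before to 50 bases after the annotated start, written 5′ to 3′ on the gene's strand, with GGAA and its reverse complement TTCC in capitals. They lie at chr17:27728902-27729201 (minus strand), chr1:135258423-135258722 (minus strand) and chr16:84834874-84835173 (plus strand).
Spdef: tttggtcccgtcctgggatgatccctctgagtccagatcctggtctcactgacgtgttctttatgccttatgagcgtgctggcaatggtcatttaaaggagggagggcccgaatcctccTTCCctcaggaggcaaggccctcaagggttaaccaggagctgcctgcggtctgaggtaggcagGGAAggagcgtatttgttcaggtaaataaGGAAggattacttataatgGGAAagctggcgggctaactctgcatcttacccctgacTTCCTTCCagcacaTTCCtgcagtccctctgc
Elf3: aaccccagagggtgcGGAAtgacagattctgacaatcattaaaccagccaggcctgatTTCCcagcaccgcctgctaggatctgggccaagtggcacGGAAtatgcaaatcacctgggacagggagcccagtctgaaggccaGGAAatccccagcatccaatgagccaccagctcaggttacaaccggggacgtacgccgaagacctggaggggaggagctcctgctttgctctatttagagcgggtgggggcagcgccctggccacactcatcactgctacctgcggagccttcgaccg
Gabpa: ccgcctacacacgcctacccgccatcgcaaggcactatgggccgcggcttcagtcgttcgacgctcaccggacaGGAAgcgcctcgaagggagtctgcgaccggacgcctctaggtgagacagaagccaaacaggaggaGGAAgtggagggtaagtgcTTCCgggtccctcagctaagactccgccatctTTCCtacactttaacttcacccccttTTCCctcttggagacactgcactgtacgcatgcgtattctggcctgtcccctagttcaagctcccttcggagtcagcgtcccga
Over both strands the core occurred 7 times in the Spdef stretch, 4 times in Elf3 and 5 times in Gabpa, against a median of 3 in all promoters of that length. In the stretches of the other genes with RefSeq entries, the number fell on both sides of that median. It was 2 and 1 in Elf1, 6 and 1 in Elf2, 2 and 8 in Elf4, 1 in Ets2 and 6 in Etv6. The Gabpa stretch held 22 CpG dinucleotides, Elf3 12 and Spdef 7, where the median promoter held 7. RefSeq entries matched 8 of the 10 genes, all but Ehf and Ets1. The core is common: GGAA or its complement was present in 95.98% of 32851 promoters, GGAT in 79.63%, GGAAG (which contains GGAA) in 71.41% and the longer CCGGAAGT (which contains both) in 3.887%. The longest of these motifs was in none of the 11 stretches of the 8 genes, which says only that those letters are not in those windows.

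The libraries held 9094295 to 28903831 expected counts. The share of mitochondrially encoded genes was lower in the 6 first libraries (12.7% to 15.5%) than in the 6 second ones (18.6% to 27.1%). All 8 epithelial markers (Epcam, Cdh1, Krt8, Krt18, Krt19, Krt7, Cldn4 and Sox9) were above 1 TPM (a level scaled to transcript length and library size) in every library, with summed levels of 2245 to 5182 TPM. Endothelial (8 genes), fibroblast (9) and endocrine (4) markers were all below 1 TPM in every library, as were 4 of 5 acinar and 8 of 10 leukocyte markers. The leukocyte sum was 2.92 to 14.8 TPM and its main part was Cd68. In such bulk samples, fewer cells of a type and less RNA per cell cannot be told apart.

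Spdef itself (ENSMUSG00000024215, chromosome 17, 27714352 to 27728955) was near the floor in every group but the mT6 control. The mT6 control libraries had 30 and 29 counts, the mT6 knockout libraries 0 and 2, and the mT6 libraries labelled SPDEF vector 1 and 0. In mT69a the controls had 2 and 4 counts, the knockout libraries 2 and 0, and those labelled SPDEF vector 2 and 0. The 2 mT6 control libraries therefore stood above all the other 10, at 1.60 and 0.67 TPM against at most 0.23. Spdef passed the filter on low counts only through that group, so a difference from it follows in part from the filter, and no test of Spdef is given. Summed counts scaled to library size were 22.7 times as high in the mT6 control as in its knockout (95% exact interval 6.01 to 192, counting error only). In mT69a the ratio of summed counts was 2.93 (0.523 to 29.7), so a loss was not detectable at this depth. The mT6 control was 7.37 times as high as the mT69a control (3.19 to 20.9). The deposited values for mouse Spdef did not rise in the 4 libraries labelled SPDEF vector, where 0 to 2 counts were seen, and the labels do not give the species or coding sequence of the vector. Directions drawn from those libraries rest on their label.

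At transcript level, the Spdef reads of the mT6 controls were assigned mainly to Spdef-201, which held 83.3% and 88.8% of the gene's TPM. The other libraries had too few counts for a share to be read. Chromosome 17 as a whole was lower in the mT6 knockout than in the mT6 control, with a median log2 fold change of -0.44 over 691 genes, and 0.03 in mT69a. Between the controls, mT69a minus mT6, the median of that chromosome was -0.43. Its part in the differences of the Spdef counts was not tested.

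Averaged over the 12 libraries, Elf3 stood first of the 27 ETS genes with a mean of 123 TPM and Ehf second with 83.7 TPM. Next came Elk4, a serum response partner, at 25.4, Ets2 at 22.9, Elf1 at 20.9, Gabpa at 15.7 and Elf2 at 14.4 TPM. Of the remaining members, with other ETS genes between them, Etv6 stood at 7.66 (rank 13), Elf4 at 5.26 (rank 14), Ets1 at 2.19 (rank 17) and Spdef at 0.258 TPM (rank 19). Elf3 and Ehf together made up 41.1% to 66.96% of the summed TPM of the family, with a median of 51.4%, while Spdef never exceeded 0.294%. The pair took 53.9% or more in every mT6 library and at most 48.9% in every mT69a library, so the lines did not overlap. The summed level of all ETS genes ran from 239 to 576 TPM. Elf3 exceeded Ehf in 10 libraries, and Ehf exceeded Elf3 in the mT6 knockout and mT6 SPDEF vector libraries numbered 2.

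**Figure D1:**
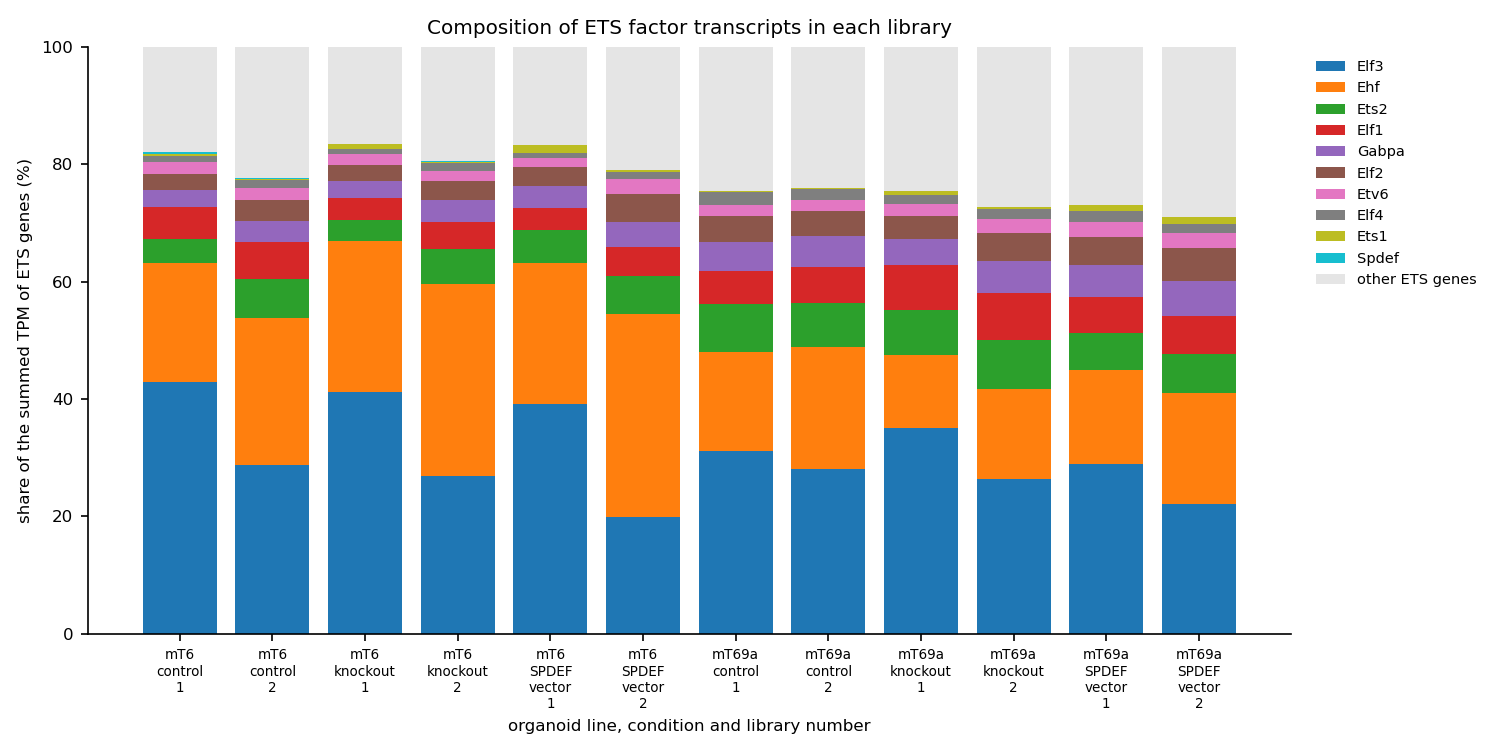
Share of the summed TPM of 27 ETS genes (%) taken by each of the 10 genes in each of the 12 libraries, stacked, with the remaining ETS genes in grey. Elf3 (19.9% to 42.9%) and Ehf (12.6% to 34.7%) form the lower bars throughout, and Spdef is too small to see outside the mT6 controls.

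Elf3, a factor of epithelial differentiation and of inflammatory responses in epithelium, differed between the 2 libraries of every group. In mT6 the libraries numbered 1 and 2 had 234 and 108 TPM in the control, 237 and 99.6 in the knockout, and 189 and 62.7 in the SPDEF vector group. In mT69a they had 101 and 75.2 TPM in the control, 150 and 72.4 in the knockout, and 94.5 and 52.9 in the SPDEF vector group. Library 2 was lower in all 6 groups, and every neighbouring pair of groups in the order of mean levels overlapped. Averaged over the lines, the knockout differed from the control by 0.08 on the log2 scale (95% interval -0.81 to 0.97, edgeR adjusted p = 0.96), and the SPDEF vector group from the knockout by -0.36 (-1.26 to 0.53, adjusted p = 0.716). Among libraries of the same line and number, the SPDEF vector library was below the knockout and below the control in all 4 sets. With the library number as a block, the SPDEF vector group lay -0.39 from the knockout (adjusted p = 0.296) and -0.35 from the control (adjusted p = 0.298), neither past the threshold. The control of mT69a lay 0.92 below that of mT6 (SE 0.56, adjusted p = 0.259). With the block the value was -0.82 (adjusted p = 0.0666), not past the threshold. Without a filter on low counts the difference between the controls passed (edgeR adjusted p = 5.6e-06). Elf3 itself, with 926 or more counts in every library, was kept with or without that filter, and why the p-value moved was not tested. Chromosome 1, where Elf3 lies, had a median of -0.35 in that comparison over 890 genes, and its part in the Elf3 value was not tested.

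The split by library number was then read from the fit that has that number as a term, an analysis added after the values had been seen. Libraries numbered 2 were lower than those numbered 1 for Elf3 by a log2 difference of -0.83 (SE 0.17, adjusted p = 0.0177) and for Ets1 by -1.24 (SE 0.34, adjusted p = 0.0383), the exception for Ets1 being the mT69a SPDEF vector group with a ratio of 1.08. Those were 2 of the 10 genes, and 26% of all genes passed in that term, 13.5% with lower values in the second libraries. Ehf, the closest relative of Elf3 in the set, showed no such split, with a difference of 0.00 (SE 0.06, adjusted p = 0.975). Whether the library number stands for a culture, a day or a preparation is not given in the labels. The mitochondrial share differed between the same 2 sets of libraries, and its part in the Elf3 and Ets1 values was not tested.

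**Figure D2:**
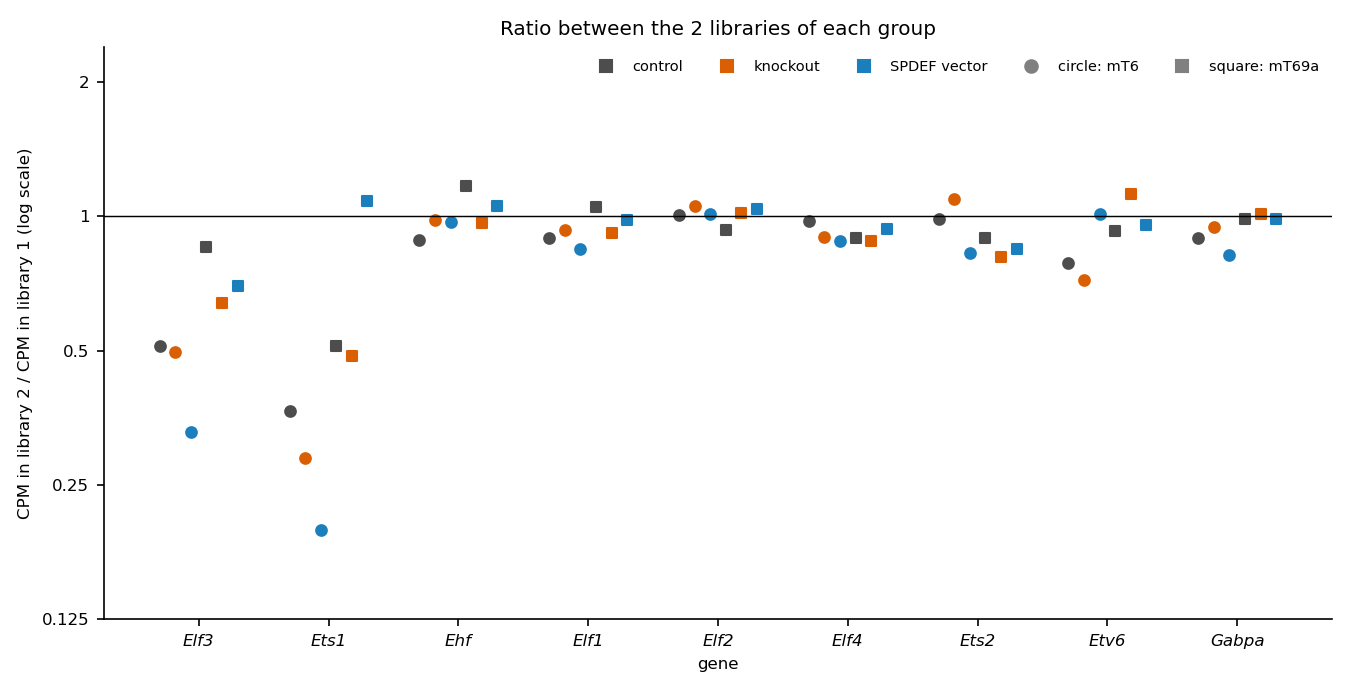
TMM-scaled CPM (library-size-scaled counts) in library 2 divided by CPM in library 1 of the same group, on a log scale, for the 9 genes other than Spdef; circles are mT6, squares mT69a, colours the condition. Elf3 lies between 0.328 and 0.853 in all 6 groups and Ehf between 0.886 and 1.17.

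Ehf, which controls epithelial programmes and restrains mesenchymal ones, separated the lines. The mT6 libraries had 111 and 94.1 TPM in the control, 148 and 121 in the knockout, and 117 and 109 in the SPDEF vector group. The mT69a libraries had 54.5 and 55.4 TPM in the control, 53.96 and 42.1 in the knockout, and 52.4 and 45.4 in the SPDEF vector group. Every mT6 library was above every mT69a library, and within mT6 the 2 knockout libraries were the highest. The mT69a control was lower than the mT6 control by a log2 difference of -1.04 (SE 0.12, edgeR adjusted p = 0.000197). The knockout differed from the control by 0.41 in mT6 (SE 0.12, adjusted p = 0.106) and by -0.26 in mT69a (SE 0.12, adjusted p = 0.282). With the library number as a block the mT6 value passed (adjusted p = 0.0202). The 2 changes differed from each other, mT69a minus mT6, by -0.67 (SE 0.17, adjusted p = 0.0444), and this call was lost in 10 of the 12 fits that each left out 1 library, with adjusted p of up to 0.161, the exceptions being those without mT69a control 1 or mT6 SPDEF vector 2. Averaged over the lines, the knockout value was 0.08 (95% interval -0.11 to 0.27).

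The lines also differed in the estimated mix of Ehf transcripts, given here as a description because the error of the split between transcripts is not in the files. The tables list 8 Ehf transcripts, 6 of them coding. Ehf-201 held 72.7% to 79.4% of the gene's TPM in mT6 and 59.99% to 70.99% in mT69a, ranges that did not overlap. Ehf-202 held 2.96% to 13.7% in mT6 and 12.3% to 31.8% in mT69a, overlapping at the edge. For Elf3 the same shares were steady: Elf3-202 held 55.2% to 64.0% and Elf3-201 31.8% to 43.7% over all 12 libraries.

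**Figure D3:**
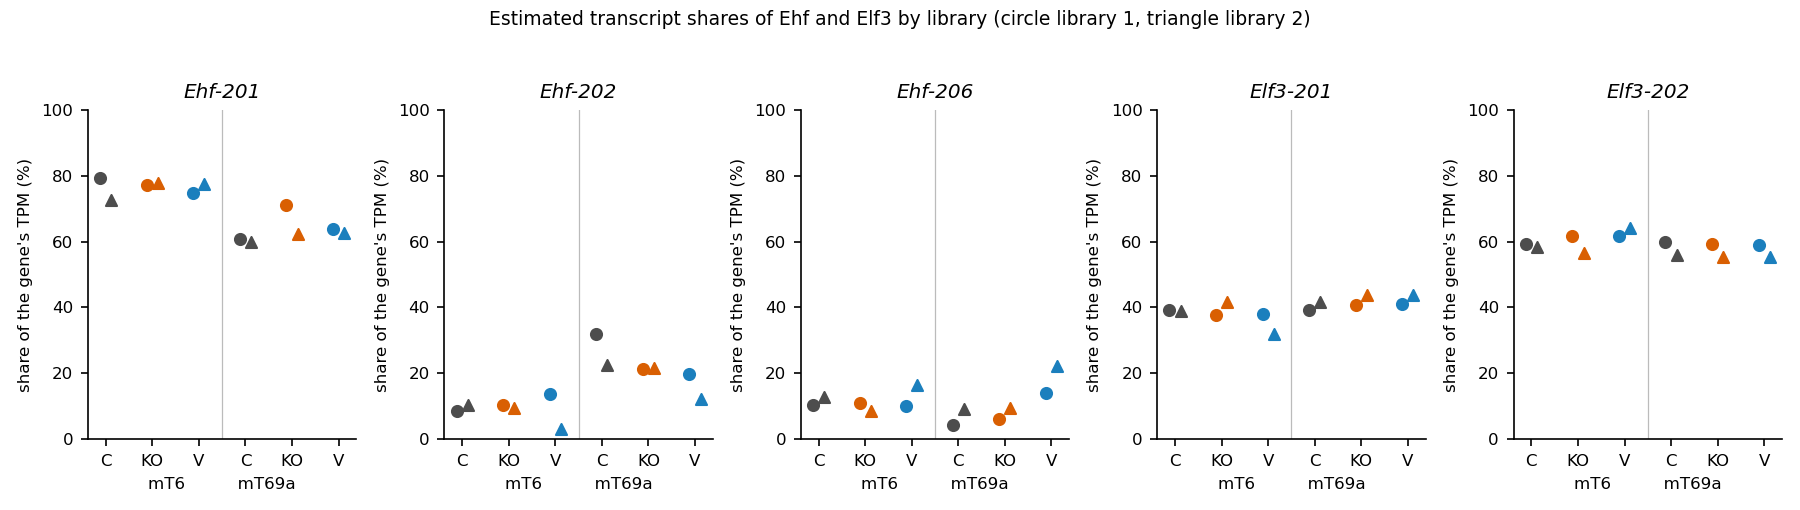
Estimated share of the gene's TPM (%) held by 3 Ehf and 2 Elf3 transcripts in each library, by line and condition (C control, KO knockout, V SPDEF vector). Ehf-201 is higher in mT6 (72.7% to 79.4%) than in mT69a (59.99% to 70.99%), while the Elf3 shares stay between 31.8% and 64.0%.

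Elf1, a factor first known from lymphoid cells and present in most tissues, differed from the control in opposite directions in the lines. In mT6 the levels were 29.9 and 23.8 TPM in the control, 21.3 and 16.7 in the knockout, and 18.8 and 15.6 in the SPDEF vector group. In mT69a they were 17.9 and 16.4 TPM in the control, 32.2 and 22.3 in the knockout, and 20.2 and 15.9 in the SPDEF vector group. The controls were the highest group of mT6 and the knockout the highest of mT69a, in each case above both other groups of the line without overlap. The knockout minus control difference was -0.50 in mT6 (SE 0.12, edgeR adjusted p = 0.0572, and 0.00583 with the library number as a block) and 0.54 in mT69a (SE 0.12, adjusted p = 0.0224). The difference between these changes, mT69a minus mT6, was 1.04 (SE 0.17, adjusted p = 0.00602) and passed in all 12 fits that left out 1 library. The rise in mT69a alone was lost without mT69a control 1 (adjusted p = 0.131), control 2 (0.109), knockout 1 (0.172), knockout 2 (0.0683) or SPDEF vector 2 (0.0543). On log2(TPM + 1) with limma neither the rise (adjusted p = 0.308) nor the difference between lines (0.188) passed.

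Elf1 in the mT6 SPDEF vector group was also lower than in the control, by -0.59 (SE 0.12, adjusted p = 0.0174), a call lost without mT6 control 1 (0.116) or mT6 SPDEF vector 2 (0.12), in a fit of the compared groups alone (0.182) and in the limma fits (0.287 to 0.343). The mT69a control was lower than the mT6 control by -0.63 (SE 0.12, adjusted p = 0.00397). Elf1 lies on chromosome 14 (79481194 to 79582494), whose 506 genes had a median of -0.37 in the mT6 knockout against its control, 0.08 in mT69a and -0.32 between the controls. The difference between the lines' changes had a median of 0.45 on that chromosome. The part of the chromosome in the Elf1 values was not tested.

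Elf2 and Elf4, the relatives of Elf1, kept narrow ranges. Elf2 ran from 11.4 to 17.1 TPM over all libraries, and its knockout minus control value averaged 0.02 (95% interval -0.14 to 0.19). In the SPDEF vector group it was 0.22 above the control (SE 0.07, adjusted p = 0.079), and 0.0325 with the block. Elf4, which in blood cells restrains proliferation, had 5.48 and 5.47 TPM in the mT6 controls, 5.41 and 4.82 in the knockout and 4.18 and 3.89 in the SPDEF vector group. In mT69a it had 7.12 and 5.22, 6.90 and 4.90, and 5.82 and 3.92 TPM in the same order. The SPDEF vector libraries were below the controls without overlap in mT6. In mT69a they overlapped the controls in TPM but not in TMM-scaled CPM. There the controls had 31.8 and 28.4 and the SPDEF vector group 24.5 and 23.0. Over both lines Elf4 was lower than the control by -0.32 (SE 0.10, adjusted p = 0.0471), a call next to the threshold that was lost in each of the 12 fits without 1 library (adjusted p of 0.059 to 0.173).

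Ets1, which ERK phosphorylation activates and which is best known from lymphocytes, endothelium and invasive tumour cells, was low, at 0.15 to 6.88 TPM. Its highest-to-lowest ratio of 45.9 was the largest of the 9 members with a level above 0 in every library, which leaves out Spdef. In mT6 the libraries numbered 1 and 2 had 1.57 and 0.54 TPM in the control, 4.90 and 0.88 in the knockout, and 6.88 and 1.21 in the SPDEF vector group. In mT69a they had 0.30 and 0.15 TPM in the control, 2.65 and 1.15 in the knockout, and 3.43 and 2.62 in the SPDEF vector group. Among libraries of the same line and number, the control was the lowest and the SPDEF vector library the highest in all 4 sets. The groups overlapped in mT6. In mT69a the knockout and the SPDEF vector group overlapped in TPM. They did not in TMM-scaled CPM, with 6.61 and 3.22 in the knockout and 12.94 and 13.98 in the SPDEF vector group. The knockout minus control value averaged 1.72 (SE 0.66, edgeR adjusted p = 0.197, and DESeq2 adjusted p = 0.0206), and the SPDEF vector minus knockout value 1.14 (SE 0.58, adjusted p = 0.336).

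The SPDEF vector group was above the control by 2.87 on the log2 scale (SE 0.65, 95% interval 1.38 to 4.36, edgeR adjusted p = 0.0213) over both lines. That call was lost without mT6 SPDEF vector 1 (0.07), mT6 control 2 (0.0824), mT69a control 1 (0.0627), mT69a control 2 (0.085), mT69a SPDEF vector 1 (0.0563) or mT69a SPDEF vector 2 (0.0596). In mT69a the value was 3.74 (SE 0.99, adjusted p = 0.0413), from 21 and 10 counts in the controls to 218 and 155. It was lost in 8 of the 12 fits without 1 library, with adjusted p of up to 0.211, and in the limma fits (0.0761 to 0.432). In mT6 it was 2.0 (SE 0.85, adjusted p = 0.207). Leukocytes and endothelium usually carry Ets1. The summed level of 10 leukocyte markers was 4.68 to 10.9 TPM in the controls, 4.69 to 14.8 in the knockout and 2.92 to 6.0 in the SPDEF vector libraries, and Ptprc and Cd3e, which define leukocytes and T cells, were below 1 TPM in every library. The sum of 8 endothelial markers was 0.14 to 0.32 TPM in the controls, 0.35 to 0.64 in the knockout and 0.27 to 0.99 in the SPDEF vector libraries, and the part of these low levels in the Ets1 values was not tested. Fli1, the neighbour of Ets1 on chromosome 9, had at most 1 count in any library.

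Ets2, the paralog of Ets1 and likewise an ERK target, was at 15.6 to 33.0 TPM and passed no comparison. Its knockout minus control value averaged 0.15 (95% interval -0.08 to 0.39). In mT69a the SPDEF vector group lay -0.44 from the knockout (SE 0.15, adjusted p = 0.158), which passed with the library number as a block (0.0263). Erg, its neighbour on chromosome 16, had 0 counts in all libraries.

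Etv6 was at 11.1 and 7.54 TPM in the mT6 control, 10.9 and 6.57 in the knockout, and 7.37 and 7.95 in the SPDEF vector group. In mT69a it was at 6.14 and 4.92, 8.74 and 6.21, and 8.55 and 5.88 TPM. Both mT69a controls were below both mT6 controls, by a log2 difference of -0.74 (SE 0.17, adjusted p = 0.00945), a call lost without mT6 control 1 (0.0722) or mT69a control 2 (0.0659). Gabpa had the narrowest range of the 10 genes, 13.4 to 19.1 TPM, a highest-to-lowest ratio of 1.42. Its knockout minus control value averaged 0.03 (95% interval -0.16 to 0.22) and its vector minus control value 0.09 (-0.10 to 0.28). Gabpb1, which supplies the activation domain of GA-binding protein, ran with 0.15 (SE 0.11, adjusted p = 0.50) in the first of these.

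**Figure D4:**
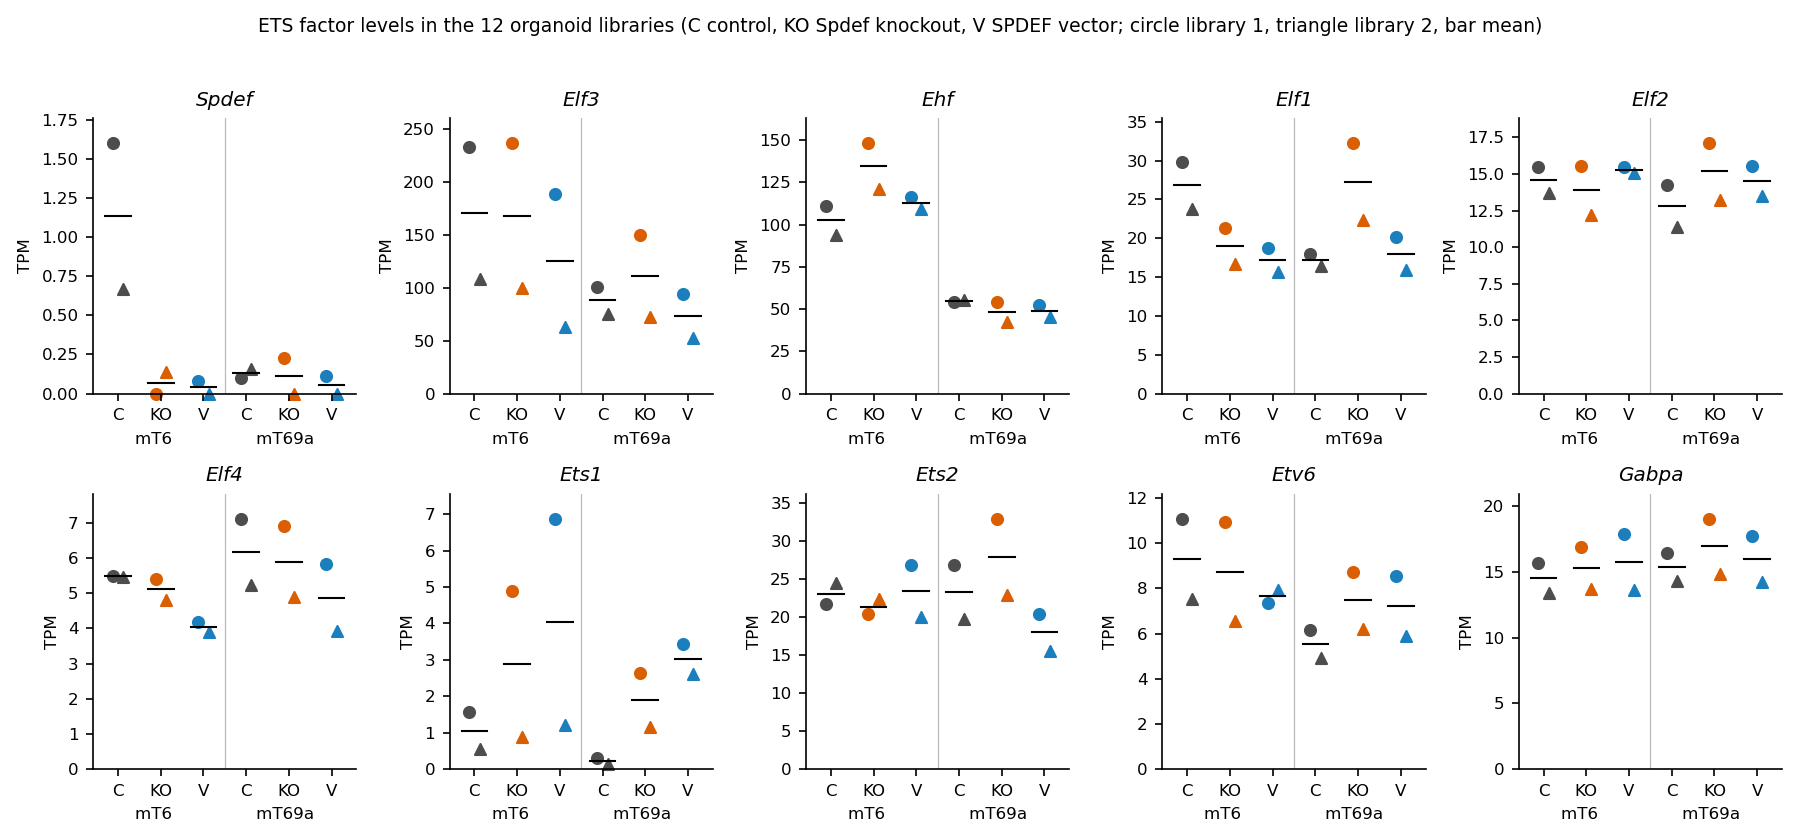
TPM of each of the 10 genes in each library (circle library 1, triangle library 2, bar the mean of 2) by line and condition; each panel has its own axis from 0. Ehf separates the lines, Elf1 has its highest group in the mT6 control and the mT69a knockout, and Spdef is at most 0.23 TPM outside the mT6 controls.

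Counted over the comparisons, few of the 9 genes other than Spdef passed; Spdef is left out of these counts because the filter let it in through the mT6 control alone. Averaged over the lines, 0 of 9 passed between knockout and control, where 5.6% of 14473 genes did, and 0 of 9 between SPDEF vector and knockout, where 7.77% did. At an unadjusted p under 0.05 there was 1 gene in the first (Ets1, which DESeq2 called) and 2 in the second (Elf1 and Elf2). With the library number as a block, 0 of 9 passed in the first, beside 15% of all genes, and 1 in the second (Elf1, adjusted p = 0.0316, beside 15.8%). Between SPDEF vector and control, 1 gene was higher (Ets1) and 1 lower (Elf4), with 14.5% of all genes called, 8.04% higher and 6.41% lower. With the block this became 4 genes (Elf1, Elf2, Elf4 and Ets1), beside 25.4% of all genes. The median log2 fold change of the 9 genes was 0.08, -0.06 and 0.03 in these 3 comparisons, beside 0.00, -0.02 and -0.02 over all genes tested.

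Within the lines, the knockout against its control called 0 of 9 genes in mT6 (3.23% of all genes, and with the block 2 of 9, Ehf and Elf1, beside 12.5%) and 1 of 9 in mT69a (Elf1, 8.6%). At an unadjusted p under 0.05, the mT6 comparison held 2 genes, again Ehf and Elf1. The SPDEF vector group against the knockout called 0 of 9 in mT6 (2.69%) and 0 of 9 in mT69a (4.25%, and with the block 2 of 9, Elf1 at an adjusted p of 0.02 and Ets2, beside 10.6%). At an unadjusted p under 0.05 these held 1 gene (Elf2) and 2 genes (Elf1 and Ets2). Against the control it called 1 of 9 in mT6 (Elf1, 8.6%) and 1 of 9 in mT69a (Ets1, 12.4%, and with the block 2 of 9, Ets1 and Elf4, beside 22.5%). The controls of the lines differed for 3 of 9 genes, all lower in mT69a (Ehf, Elf1 and Etv6), beside 28.2% of all genes in either direction and 14.7% lower. The change from control to knockout differed between lines for 2 of 9 (Elf1 and Ehf, 6.62%), and that from knockout to SPDEF vector for 0 of 9 (0.0138%), with 1 gene (Ets2) at an unadjusted p under 0.05.

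**Figure D5:**
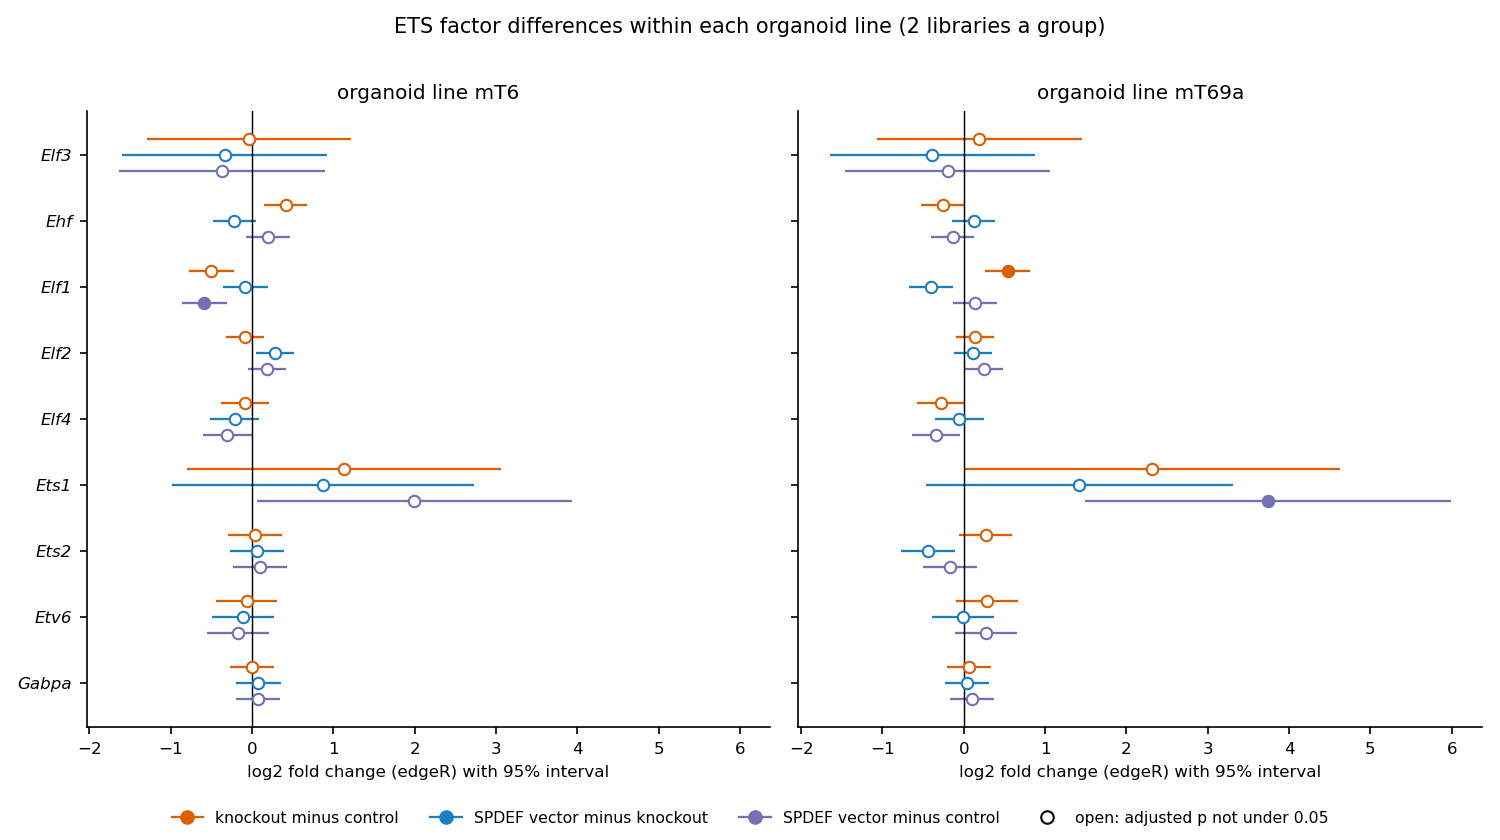
edgeR log2 fold changes with 95% intervals for the 9 genes other than Spdef in 3 comparisons within each line (2 libraries a group); filled points passed an adjusted p of 0.05. Filled are Elf1 (SPDEF vector minus control) in mT6, and Elf1 (knockout minus control) and Ets1 (SPDEF vector minus control) in mT69a, while the Elf3 and Ets1 intervals are wide.

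Of the 17 other ETS genes found, 9 had enough counts to be tested. Between knockout and control over both lines 2 of the 9 were higher (Elf5 and Elk3) and 0 lower, beside 3.3% and 2.3% of all genes. Between SPDEF vector and knockout 1 was higher (Etv4) and 2 lower (Elf5 and Elk3), beside 4.46% and 3.32%. In mT6 alone 0 of the 9 passed in either comparison, beside 3.23% and 2.69% of all genes. In mT69a alone 2 were higher in the first, and 1 was higher and 2 lower in the second, beside 8.6% and 4.25%. Elf5, an ESE factor like Elf3 and Ehf and a regulator of mammary and other glandular epithelium, lies beside Ehf on chromosome 2. It had 96 and 300 counts in the mT6 controls, 143 and 260 in the knockout and 56 and 37 in the SPDEF vector group, but 1 and 0, 14 and 5, and 0 and 1 in mT69a. The mT69a controls held 1 Elf5 count in all, so ratios to them are loose. Scaled summed counts in the mT6 controls were 297 times those in the mT69a controls (interval 52.99 to 11760, counting error only). Within mT69a the knockout sum, of 19 counts, was 19.5 times that of its control (3.10 to 809). The averaged Elf5 value was 2.21 between knockout and control (SE 0.48, adjusted p = 0.0228). Between SPDEF vector and knockout it was -2.52 (SE 0.48, adjusted p = 0.00888). Both averages include the mT69a counts near the floor, while in mT6 alone Elf5 passed neither comparison. The first was lost without mT6 knockout 1 (0.0504), mT69a control 1 (0.0548), mT69a control 2 (0.116) or mT69a knockout 1 (0.148), and the second without mT69a knockout 1 (0.0777) or mT69a SPDEF vector 1 (0.0683).

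Elk3, a ternary complex factor that represses until ERK phosphorylates it, had 13.8 and 10.2 TPM in the mT6 controls. It had 13.7 and 11.7 in the knockout and 14.2 and 7.92 in the SPDEF vector group, so the groups overlapped in TPM. In TMM-scaled CPM, Elk3 was higher in the mT6 knockout (41.3 and 37.9) than in the controls (34.35 and 32.6) or the SPDEF vector group (36.2 and 26.9). In mT69a it had 10.7 and 9.41 TPM in the controls, 28.4 and 19.6 in the knockout and 11.8 and 10.9 in the SPDEF vector group, so the 2 mT69a knockout libraries were the highest of the 12. Its knockout value averaged 0.68 (SE 0.11, adjusted p = 0.00491) and was 1.12 in mT69a alone (SE 0.15, adjusted p = 0.00144). The averaged SPDEF vector minus knockout value was -0.50 (SE 0.11, adjusted p = 0.0198), lost without mT6 knockout 1 (0.0738), mT69a knockout 1 (0.0911), mT69a SPDEF vector 1 (0.108) or mT6 SPDEF vector 2 (0.0667). Etv4, a PEA3 factor of branching epithelia, was 0.56 higher in the SPDEF vector group than in the knockout (SE 0.10, adjusted p = 0.00684). Its levels were 8.84 and 7.04 TPM in the knockout and 10 and 10.4 in the SPDEF vector group of mT6, and 11.2 and 7.57 against 15.6 and 12.9 in mT69a, without overlap in either line.

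Etv1, its PEA3 relative, was lower in the SPDEF vector group than in the control by -0.92 (SE 0.27, adjusted p = 0.0454), and this was lost in 10 of the 12 fits without 1 library, with adjusted p of up to 0.17. In the mT69a control 3 of the 9 were lower than in the mT6 control, beside 14.7% of all genes: Elf5, Etv1 (-3.37, SE 0.36, adjusted p = 0.000102) and Etv5 (-0.69, SE 0.13, adjusted p = 0.00292). Elk4, next in level after Elf3 and Ehf, passed no averaged comparison, with a knockout value of -0.20 (SE 0.08, adjusted p = 0.224).

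Among partners and ligases of the family, Cop1 fell. Cop1 is the ubiquitin ligase that degrades ETS factors of the PEA3 and ETS1/2 branches. It had 65.95 and 48.6 TPM in the mT6 controls, 35.4 and 22.8 in the knockout and 25.6 and 15.1 in the SPDEF vector group, without overlap between the controls and the others. In mT69a the levels were 49.2 and 43.4 in the control, 58.7 and 35.9 in the knockout and 45.7 and 33.6 TPM in the SPDEF vector group. The mT6 knockout value was -1.20 (SE 0.12, edgeR adjusted p = 0.000683), the mT69a value -0.13 (SE 0.12, adjusted p = 0.66), and their difference 1.07 (SE 0.17, adjusted p = 0.00413). On log2(TPM + 1) with limma the mT6 value (adjusted p = 0.371) and the difference (0.532) did not pass, and the mT6 value did not in a fit of the compared groups alone (0.0658). Chromosome 1, which holds Cop1, had a median of -0.28 over 890 genes in the mT6 knockout, and its part in the value was not tested. The other 3 genes of that list (Gabpb1, Gabpb2 and Det1) passed in no averaged comparison.

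A list of 26 genes of the goblet programme that SPDEF is known to drive was read beside Spdef. Of its 20 genes with enough counts, 0 were higher and 7 lower in the knockout than in the control over both lines, beside 3.3% higher and 2.3% lower of all genes, with a median log2 fold change of -0.80 against 0.00 over all genes. In the SPDEF vector group 9 were higher and 4 lower than in the knockout, beside 4.46% and 3.32%, with a median of 1.84 against -0.02. Against the control 6 were higher and 4 lower over both lines, beside 8.04% and 6.41%, with a median of 0.54 against -0.02. In mT6 this was 8 higher and 3 lower (median 0.93), and in mT69a 5 higher and 4 lower (median -0.14). Of all genes, 8.6% and 12.4% were called in these, in either direction. The genes named below were chosen by smallest adjusted p, and all were higher than in the knockout. The list was drawn up with earlier results of these data known. Mouse Spdef itself stayed near the floor in the knockout and the SPDEF vector libraries of both lines and in the mT69a controls, but not in the mT6 controls. Creb3l4, a membrane-bound factor of secretory cells, had 0.62 to 1.37 TPM in the 4 knockout libraries and 49.0 to 67.9 in the 4 SPDEF vector libraries, with a log2 fold change of 5.95 (SE 0.14, edgeR adjusted p = 6.85e-09). Creb3l1, its relative, had 0.04 to 0.33 and 6.44 to 17.8 TPM in the same libraries (log2 fold change 6.55, SE 0.24, adjusted p = 3.88e-07). Foxa3, a forkhead factor of endodermal and goblet cells, followed with 4.10 (SE 0.19, adjusted p = 1.27e-06), at the same adjusted p as Rap1gap (2.52, SE 0.11).

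The genes whose levels followed a member most closely were taken by Pearson's r of log2(CPM + 1) over the 12 libraries. The search covered 9265 protein-coding genes with a mean of at least 5 CPM, without those of Gm or Rik symbols. The ranking is a description, since the libraries share lines, conditions and depth. For Elf3 they were AI661453 (r = 0.957), Bcar1 (0.954) and Junb (0.948). Within groups the r of their deviations was 0.956, 0.984 and 0.993, and all 3 were lower in the libraries numbered 2, for example Junb by -0.98 (SE 0.22, adjusted p = 0.0265). For Ehf they were Smim7 (0.994), Map1lc3b (0.987) and Tet2 (0.987), with 0.849, 0.484 and 0.818 within groups. For Spdef they were Lrp10 (0.928), Nelfe (0.924) and Ubxn6 (0.92), with 0.608, 0.564 and 0.299 within groups, a ranking that rests on the 2 mT6 control libraries.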

How the data were processed

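RNA of 12 organoid libraries (2 lines, 3 conditions, 2 libraries a group) was analysed from deposited tables of 1 library each. Per the labels' protocols, total RNA was made into stranded libraries (TruSeq Stranded Total RNA). The submitters' processing notes list FastQC 0.11.8, STAR 2.5.2b and RSEM 1.3.0 with GRCm38.p6, and the annotation is not given in the sources used here. The authors' expected counts (8.08% to 11.3% not whole, tolerance 0.005), their TPM and, for transcripts, their percent of the gene's TPM were used as deposited. Expected counts were rounded to whole numbers.

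Of 53715 identifiers, 53620 matched GENCODE M21 by gene and 51464 by version. The main test, on the 14473 genes that filterByExpr left at a minimum count of 10, was the robust quasi-likelihood test of edgeR 4.0.16 with TMM scaling and 1 mean for each of 6 groups. It had 6 residual degrees of freedom and a biological variation of 19.2%. Contrasts were two-sided with Benjamini-Hochberg adjustment over all genes tested and a threshold of 0.05. The scripts were tested on simulated data. Alternatives were RLE scaling, DESeq2 1.42.0, other filters, limma 3.58.1 on log2(TPM + 1) and log2(TPM + 0.1), a block for the library number, library sizes without mitochondrial genes, fits of the compared groups only and each library left out (R 4.3.3, Python 3.11.15, pandas 2.3.3, numpy 2.4.6, scipy 1.17.1, matplotlib 3.10.9). Intervals of count ratios are exact and cover counting error only. P-values measure the spread between these libraries, which may be technical.

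Libraries with the same label number deviated together: the correlation of their deviations from the group means was 0.226 to 0.683 over 15 pairs of groups. The number was therefore used to pair libraries in the fit with the block. The main tests have no such term and do not pair libraries. Blocked values or counts are given where they change a call of a member other than Spdef. The libraries of a group differed by more than sampling noise. The members and lists were chosen with earlier results of these data known. Named genes are the 10 members; of other ETS genes the neighbours Elf5, Fli1 and Erg, those past the threshold in an averaged comparison and the 3 of highest TPM; up to 3 genes of smallest adjusted p in each other list; and the 3 genes most like Spdef, Elf3 and Ehf. Etv5, which passed between the controls and in the difference between lines, was named after its values were seen. The series' design text writes Trp53LSLR172H/+ where the sample labels write /LOH.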

Additional observations from a re-analysis of the deposited data

Results flagged for a closer look

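For 5 genes the change from control to knockout differed between the lines by the test of that difference (edgeR, 2 libraries a group). Each value is the mT69a change minus the mT6 change on the log2 scale. Of the 9 members other than Spdef, 1 passed with a positive and 1 with a negative value. Of 9 tested other ETS genes 2 passed, and of 4 partners and ligases 1, beside 6.62% of all genes. Elf1 had 1.04 (adjusted p = 0.00602), with both mT6 knockout libraries below and both mT69a knockout libraries above their controls. Cop1 had 1.07 (adjusted p = 0.00413), with a fall in mT6. On log2(TPM + 1) with limma neither the Elf1 nor the Cop1 difference passed. Ehf had -0.67 (adjusted p = 0.0444), a call lost in most of the fits without 1 library. Elk3 had 0.87 (adjusted p = 0.0397), lost in 10 of the 12 fits without 1 library (adjusted p of up to 0.156). Etv5, a PEA3 factor, had 0.87 (adjusted p = 0.0164), lost without mT6 control 2 (0.0606), mT6 knockout 2 (0.0836), mT69a control 2 (0.0742), mT69a knockout 1 (0.0695) or mT69a knockout 2 (0.0591). Elf1 and Cop1 lie on chromosomes whose medians differed between the lines in the same direction (0.45 on chromosome 14 and 0.30 on chromosome 1). The part of those chromosomes in the values was not tested.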

How the results depend on the processing

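No called fold change of the 17 named ETS-related genes reversed: of 4443 alternative values, 4143 kept their side of the threshold, 242 lost it and 58 gained it, and the 184 changes of sign were between values called under neither setting. Values called under neither setting count as kept. The number of alternatives to called values is not given, so the 242 are no rate of lost calls. Counts of members called moved as follows, and the cause was not tested. They are over all 10, Spdef included, except where 9 are named. Spdef passed the filter through the mT6 control alone, so its calls in these counts are no support. The share of all genes called also moved with the setting. For knockout against control over both lines it went from 5.6% to 15% with the block. For settings other than the main fit and the block that share is not given. Their counts are therefore not read as a result about these genes. Over the 9 members other than Spdef, the block called 0 for knockout against control over both lines. The block called 4 for SPDEF vector against control over both lines, beside 25.4% of all genes. It called 2 for the mT6 knockout against control, beside 12.5%. The controls of the lines differed for 3 of the 9, beside 28.2% of all genes in the main fit. For knockout against control over both lines (0), DESeq2 called 1, no filter 2 and the replicate block 1. For SPDEF vector against knockout (0), no filter called 1 and the block 1. For SPDEF vector against control (2), RLE scaling, DESeq2, leaving out mitochondrial genes and fitting only the compared groups each called 1, the 3 limma fits 0, the block 5, and leaving out a library 0 to 1. In mT6 the knockout against control (0) gave 2 with DESeq2, 2 with no filter, 1 with at least 1 CPM in 4 libraries, 3 with the block and 0 to 1 without a library. In mT69a (1) it gave 2 with DESeq2, no filter or only the compared groups, 0 with limma and 0 to 1 without a library. SPDEF vector against knockout gave 1 with no filter in mT6 (0), and in mT69a (0) 1 with no filter, 2 with the block and 1 with only the compared groups. SPDEF vector against control, over the 9 members other than Spdef and under settings chosen for it after seeing the data, gave in mT6 (1) 2 with no filter, 0 with limma or only the compared groups and 0 to 1 without a library, and in mT69a (1) 2 with the block, 0 with limma and 0 to 1 without a library. The controls (4) gave 1 with each filtered limma fit, 2 with limma and no filter, and 2 to 4 without a library. The difference between lines of the knockout change (2) gave 1 with no filter or only the compared groups, 0 with limma and 1 to 2 without a library. Where the replicate block changed the call of a member other than Spdef, the report says so beside the result or the count. Unrounded counts left the Spdef ratios as they were. Spdef, at 0 to 4 counts in 10 libraries, is limited by depth.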
